A study of Rattus norvegicus with 84 samples.

Results

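Genes of B cells and of antigen presentation to T cells were followed in the RNA of extracellular vesicles (EVs) from the plasma and the brain of rats with and without ischemic stroke. The set held 9 of the 18782 annotated genes in the counts table. They were taken by symbol, with earlier results of these data known. They were 5 B cell genes (Ms4a1, Cd79a, Cd79b, Cd22 and Blk) and 4 genes of antigen presentation (Cd74, RT1-Da, RT1-Ba and RT1-Bb). All 21 rats were adult male wild-type Sprague-Dawley rats, in 7 groups of 3. The healthy group had no stroke. In the other 18 rats the middle cerebral artery was occluded for 90 min, and 3 days later the control rats received saline and the treatment rats received human neural stem cells (hNSCs), a line grown from fetal telencephalon, through an artery. Control and treatment rats were sampled 4, 10 and 31 days poststroke, so that the earliest sampling came soon after the injection. Each rat gave a plasma library and a library from the right, ipsilateral hemisphere. The vesicles of all cells in the hemisphere or the blood are pooled. Nothing in these libraries separates fewer cells of a type from less RNA per cell or from fewer vesicles per cell.

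B cells recognise antigen with a membrane-bound antibody that signals through the paired chains Cd79a and Cd79b. Ms4a1 encodes CD20, the surface protein used to identify B cells, Cd22 encodes an inhibitory receptor that dampens the signal, and Blk encodes a kinase of the Src family that acts below the receptor. B cells, dendritic cells, macrophages and activated microglia display peptides to helper T cells on class II molecules, each a pair of an alpha and a beta chain. RT1-Da is the rat counterpart of the human HLA-DR alpha chain, and RT1-Ba and RT1-Bb are the alpha and beta chains of the counterpart of HLA-DQ. Cd74, the invariant chain, fills the groove of a new class II molecule and escorts it to the compartment where peptide is loaded. In the healthy brain few cells display class II molecules, and microglia are known to raise them after injury.

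Genes of class II presentation are switched on together through short elements just before their start sites. The 120 bases before the start sites of the 3 class II chain genes of the set are shown with those of RT1-Db1, the beta chain that pairs with RT1-Da, and of Cd74. They are shown because the 3 chains were counted together in brain-derived EVs only at 31 days (described further on). The part of these elements in the EV values was not tested. The sequences are from RefSeq, build GRCr8, at chr20:4515295-4515414 (RT1-Da, plus strand), chr20:4560163-4560282 (RT1-Db1, minus strand), chr20:4576937-4577056 (RT1-Ba, plus strand), chr20:4604119-4604238 (RT1-Bb, minus strand) and chr18:56527086-56527205 (Cd74, plus strand). Capitals mark the letters CTGATTGG (the Y box), AGCAAC (the core of the X box) and TGACGTCA (a cyclic AMP response element), searched on both strands; the last reads the same on either strand.
RT1-Da: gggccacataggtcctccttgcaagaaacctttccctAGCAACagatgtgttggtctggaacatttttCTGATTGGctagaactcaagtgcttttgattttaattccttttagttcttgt
RT1-Db1: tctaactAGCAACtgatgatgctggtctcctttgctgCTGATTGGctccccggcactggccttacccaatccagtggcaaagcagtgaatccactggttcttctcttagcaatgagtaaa
RT1-Ba: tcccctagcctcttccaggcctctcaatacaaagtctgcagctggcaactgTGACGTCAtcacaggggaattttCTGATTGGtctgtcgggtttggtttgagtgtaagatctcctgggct
RT1-Bb: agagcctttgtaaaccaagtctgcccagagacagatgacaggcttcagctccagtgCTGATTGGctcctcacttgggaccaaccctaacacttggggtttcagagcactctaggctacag
Cd74: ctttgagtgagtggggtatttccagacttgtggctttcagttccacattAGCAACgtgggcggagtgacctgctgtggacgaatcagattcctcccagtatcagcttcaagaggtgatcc
CTGATTGG read in the direction of the gene in all 4 class II chain genes, its leading letter 52 bases before the start in RT1-Da, 83 in RT1-Db1, 46 in RT1-Ba and 64 in RT1-Bb. It occurred in 3.5% of the 33469 rat promoter windows of 300 bases (250 before the start to 50 after it), and not in the window of Cd74. AGCAAC occurred in the windows of RT1-Da, RT1-Db1 and Cd74 and in 14.7% of all windows, and TGACGTCA in that of RT1-Ba and in 1.83% of all windows. Promoters were listed for 6 of the 9 members. The octamer ATGCAAAT, which B cell factors of the Oct family bind, occurred in 1.78% of all windows and in none of these 6.

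The plasma libraries held 6357675 to 31028559 counts in annotated genes (median 20833331) and the brain libraries 569136 to 15587216 (median 3746015). In the brain 3.18% to 51.9% of all counts fell in annotated genes, against 45.1% to 75.6% in plasma. Levels are given as counts scaled to a fixed total of annotated counts (CPM) after TMM scaling within a tissue, and levels of different genes are compared as FPKM, which is per length. In edgeR's quasi-likelihood test, run across all genes that passed its filter on low counts, a gene counted as called where the change exceeded 1.5-fold and the adjusted p was below 0.05. All 9 members passed that filter in plasma and 4 of 9 in the brain. Where nothing says that libraries came from separate preparations, the tests measure the spread between these rats.

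In plasma-derived EVs every member was detected, at levels that spanned a wide range. Cd74 was the most abundant, with a median of 53.3 FPKM over the 21 libraries (mean 61.3 ± 33.0, SD), and it ranked 350 among the annotated genes by median FPKM. RT1-Da followed at a median of 17.8 FPKM (20.7 ± 11.9), and it lay below Cd74 in all 21 libraries. RT1-Ba came next at 5.28 FPKM (5.20 ± 4.10), ahead of Cd79a at 3.35 (5.40 ± 5.36). RT1-Ba was above Cd79a in only 11 of 21 libraries, so these neighbours could not be ordered. Cd79a was above Ms4a1 (1.32 FPKM) in 18 of 21. The medians of Ms4a1, Cd79b (0.965), Blk (0.913) and RT1-Bb (0.883) were within the spread of each other, and Cd22 had the lowest median, 0.278 FPKM, although RT1-Bb was above it in only 13 of 21 libraries.

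Only Cd74 and RT1-Da had counts in all 21 plasma libraries. Cd79a and RT1-Ba had counts in 19, Cd22 in 17, Ms4a1 in 16, Blk and RT1-Bb in 15 and Cd79b in 14. Zeros also occurred in deep libraries. In the control group at 31 days Ms4a1 had 0, 0 and 1839 counts, although 3 counts were worth at most 0.144 CPM in each of these libraries. None of the 15 values of the B cell members was 0 in healthy rats, against 15 of 45 (33.3%) in control rats and 9 of 45 (20.0%) in treatment rats. For the class II members and Cd74 the zeros numbered 0 of 12, 3 of 36 (8.33%) and 5 of 36 (13.9%). The 3 treatment rats at 10 days also had counts for all 9 members.

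**Figure D1:**
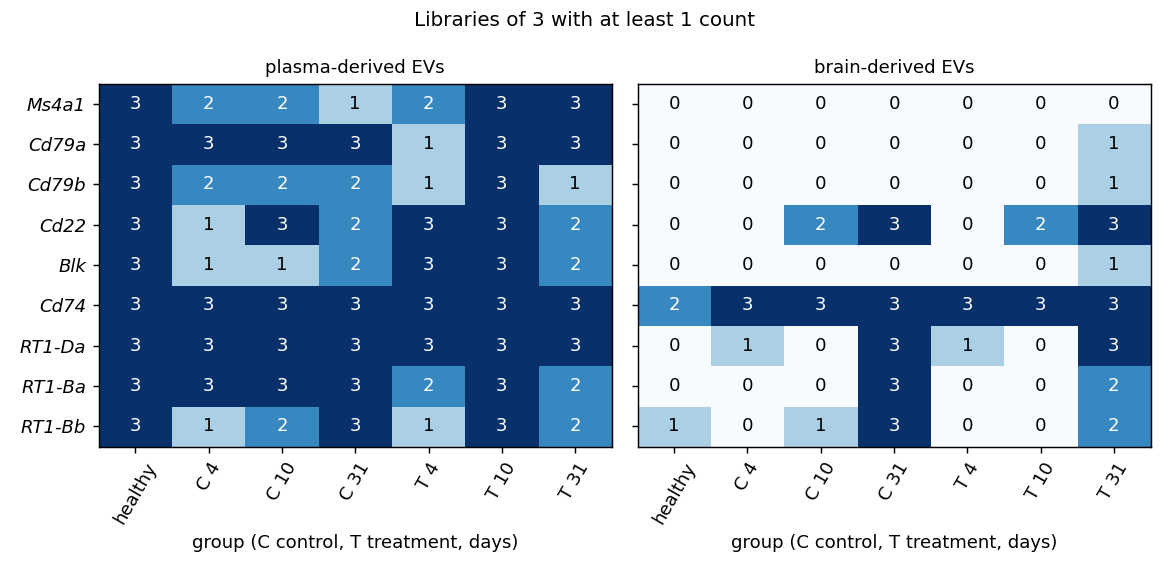
Number of libraries, of 3 in each group, with at least 1 count of each member in plasma-derived (left) and brain-derived EVs (right), with darker cells for more libraries; C is control and T is treatment, with days poststroke. All 9 members were detected in all 3 healthy plasma libraries, and in the brain the 3 class II chains were detected together in all 3 control libraries only at 31 days.

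The chains of a pair were not captured evenly. Cd79a and Cd79b, which need each other to reach the cell surface, were both counted in 14 plasma libraries, Cd79a alone in 5, Cd79b alone in 0 and neither in 2. Where both were counted, the FPKM of Cd79a was 0.476 to 31.6 times that of Cd79b (median 2.90) and exceeded it in 13 of 14 libraries. RT1-Ba and RT1-Bb showed a like imbalance, with both in 15 libraries, RT1-Ba alone in 4, RT1-Bb alone in 0 and neither in 2. The ratio of RT1-Ba to RT1-Bb ran from 0.408 to 24.9 (median 2.90).

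The comparison of control with healthy rats at 4 days asked how acute stroke moved these RNAs in plasma. All 9 estimates were below 0, with medians of -2.47 on the log2 scale for the B cell members and -0.87 for Cd74 and the class II chains, beside -0.12 for all genes tested, of which 55.2% were below 0. None of the 9 was called, beside 0.0679% of the 14720 genes tested (1 higher and 9 lower). At an unadjusted p under 0.05 edgeR had 0 of the 9, DESeq2 1 and limma on log2(FPKM + 1) 1, beside 5.86%, 10.3% and 6.59% of all genes. Neither DESeq2 nor limma called a member, beside 6.16% and 0.0476% of all genes called.

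Ms4a1 was at 16.6, 10.7 and 30.4 CPM in the healthy rats and at 0, 0.587 and 1.54 CPM in the control rats at 4 days. The groups did not overlap, yet the change of -4.74 ± 2.77 (SE) on the log2 scale had an adjusted p of 0.744. Blk, the kinase, was at 16.6, 9.33 and 23.0 CPM in healthy rats and at 0, 3.12 and 0 CPM in controls (-3.97 ± 2.91, adjusted p = 0.916). Cd79a ran from 18.3 to 61.4 CPM in healthy rats and from 2.44 to 18.1 CPM in controls (-1.92 ± 1.56, adjusted p = 1.00). The lowest healthy library and the highest control library of Cd79a were thus almost level. RT1-Ba was at 56.5, 23.8 and 25.6 CPM in healthy rats and at 3.81, 17.5 and 11.7 CPM in controls (-1.68 ± 1.59). These 4 members had every control library below every healthy one, as did 6.92% of the 17965 genes with counts in plasma.

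The other members overlapped between these groups. Cd79b gave 24.1, 11.6 and 15.5 CPM in healthy rats and 4.45, 0 and 12.2 CPM in controls. Cd22, the inhibitory receptor, gave 6.36, 4.10 and 21.9 CPM against 0, 5.83 and 0 CPM. Cd74 was measured with the smallest SE of the set after RT1-Da, at 407, 148 and 435 CPM in healthy and 65.9, 201 and 274 CPM in control rats (-0.88 ± 0.55, adjusted p = 0.770). RT1-Da gave 154, 68.3 and 137 CPM against 48.8, 135 and 83.0 CPM (-0.43 ± 0.51), and its 95% normal interval of -1.43 to 0.56 leaves room for a fall by more than 1 log2 unit or a slight rise. The healthy rat with the lowest values of 8 of the 9 members (replicate 2) also had the fewest annotated counts of its group, 14369005. Its composition differed as well. The sum of 12 class I presentation genes was 8072 CPM there against 2249 and 2062 CPM, and that of 6 neuron genes 2316 against 396 and 226 CPM.

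**Figure D2:**
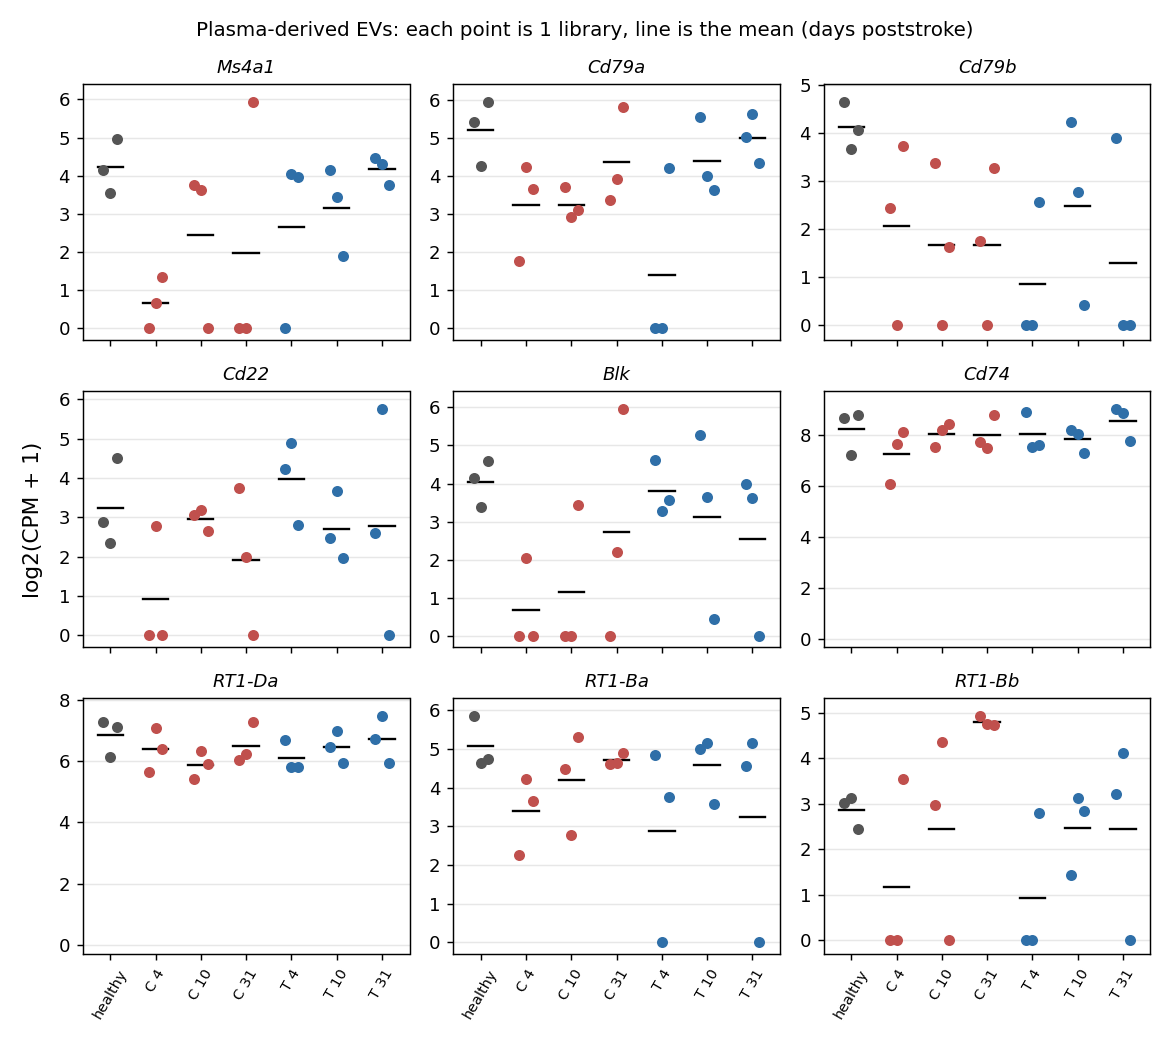
Level of each member in plasma-derived EVs, as log2(CPM + 1), in healthy, control (C) and treatment (T) rats by days poststroke; each point is 1 library and the bar is the mean of 3. For Ms4a1 and Blk the control points at 4 days lie under all healthy points, and single libraries at 0 beside libraries above 4 on this axis are common.

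At 10 days the B cell members again had all 5 estimates below 0 (median -2.16, all genes -0.22), and at 31 days 3 of 5 (median -0.62, all genes -0.09). No member was called at 10 or 31 days by edgeR (0% of all genes at both), DESeq2 (8.25% and 4.48% of all genes) or limma (0.0204% and 0.0408%). At an unadjusted p under 0.05 edgeR had 0 of 9 at both times, beside 5.61% and 4.75% of all genes, and DESeq2 0 of 9, beside 11.3% and 8.52%. Limma had 2 of 9 at 10 days and 1 at 31 days, beside 5.88% and 6.76% of all genes. At 10 days Cd79a (12.2, 6.63 and 7.60 CPM) and Cd79b (9.34, 0 and 2.09 CPM) lay below every healthy library, as did 7.09% of genes. The class II chain RT1-Da was at 41.7, 78.5 and 58.8 CPM at 10 days, overlapping the healthy range by its highest library (-1.01 ± 0.51, unadjusted p = 0.0636, adjusted p = 0.750).

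At 31 days the control rats disagreed with each other for B cell genes. Control replicate 3 held 60.4 CPM of Ms4a1, 56.0 of Cd79a and 61.4 of Blk, while replicates 1 and 2 held 0 and 0, 9.43 and 14.2, and 0 and 3.59 CPM. The same library held no Cd22, the other 2 held 12.4 and 2.97 CPM. It also stood apart for other genes. The sum of 9 T cell genes was 558 CPM there against 155 and 176 CPM, and that of 15 B cell receptor signalling genes 2196 against 833 and 772 CPM. The sum of 5 liver genes was the lowest of the group, 2870 CPM. Cd79b (2.39, 0 and 8.66 CPM) was the only member below all healthy libraries at 31 days (6.46% of genes). RT1-Bb, the DQ-like beta chain, was the only member above them (3.56% of genes), at 29.4, 25.8 and 25.6 CPM against 7.12, 7.76 and 4.45 CPM in healthy rats. No other plasma library reached that level, the highest of the other 18 being 19.6 CPM, a pattern singled out after its values were seen. The fitted change was 2.06 ± 2.66 with an adjusted p of 1.00, and the change ran from 1.67 to 2.32 over the alternatives tried. RT1-Ba, its partner chain, was at 23.6, 24.0 and 28.7 CPM in the same rats and did not stand apart.

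Averaged over the 3 times, control against healthy plasma gave no called member (0% of all genes), with Cd79a at -1.58 ± 1.14 and Cd74 at -0.47 ± 0.44. Between control rats at 31 and 4 days no member was called either, while 0.17% of all genes were. Ms4a1 had the largest estimate there, 4.81 ± 2.78 (unadjusted p = 0.0994), which rested on control replicate 3 alone because the other rats at 31 days had no Ms4a1 counts. In both of these contrasts edgeR gave no member an unadjusted p under 0.05, beside 9.61% and 4.56% of all genes. For 31 against 4 days DESeq2 and limma gave 1 each, beside 9.29% and 6.58% of all genes, and for the average limma gave 2, beside 4.93%, none of them called.

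Treatment was compared with control on the same day to ask whether hNSCs moved these genes. No member was called at 4, 10 or 31 days or over the 3 days, beside 0.00679%, 0%, 0% and 0% of all genes. At an unadjusted p under 0.05 edgeR had 0 of 9 each time, beside 3.94%, 4.06%, 8.57% and 6.53% of all genes, and DESeq2 0 of 9, beside 8.93%, 9.53%, 15.4% and 15.1%. Limma had 1 of 9 at 31 days, beside 10.6% of all genes. At 4 days Cd22 was at 17.8, 28.5 and 6.04 CPM in treatment rats and at 0, 5.83 and 0 CPM in controls (3.16 ± 2.50, unadjusted p = 0.221). Blk was at 23.5, 8.64 and 10.8 CPM in treatment rats and at 0, 3.12 and 0 CPM in controls (3.78 ± 2.88, unadjusted p = 0.205). For both genes all treatment libraries exceeded all control libraries, as did 2.74% of genes. Ms4a1 was at 0, 15.5 and 14.6 CPM in treatment rats (unadjusted p = 0.167).

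The B cell members did not move as a unit in those treatment libraries. The treatment rat with 23.5 CPM of Blk and 17.8 CPM of Cd22 (replicate 1) had no counts of Ms4a1, Cd79a or Cd79b. In replicate 2, the shallowest plasma library, Cd79a, Cd79b, RT1-Ba and RT1-Bb were all at 0. Without treatment replicate 3 the fit called Cd79a lower, since the 2 libraries that remained were both at 0. That fit called 0.262% of 15638 genes (4 higher and 37 lower).

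Cd74 and RT1-Da gave the narrowest limits on a treatment effect. Over the 3 times plasma Cd74 differed by 0.34 ± 0.32 and RT1-Da by 0.17 ± 0.29 on the log2 scale (adjusted p = 1.00 for both), with 95% normal intervals of -0.28 to 0.96 and -0.41 to 0.74. For the B cell members the SE of the same contrast was 0.87 for Cd79a and 1.36 to 1.67 for the others, so changes of several fold in either direction would pass unseen. At 31 days RT1-Bb was at 8.26, 16.2 and 0 CPM in treatment rats, below all 3 control rats (5.39% of genes), with a change of -1.72 ± 2.63. Tests of whether the treatment effect differed between days called no plasma member, the lowest unadjusted p being 0.203.

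Other genes of B cells and of presentation were listed beside the members, from lists drawn up with earlier results of these data known. Of 16 further B cell identity genes, 15 were estimated lower in controls than in healthy rats at 4 days, 13 at 10 days and 15 at 31 days, with medians of -1.94, -0.81 and -1.23, and 0 were called. At an unadjusted p under 0.05 edgeR had 4, 2 and 2 of the 16 at these times, beside 5.86%, 5.61% and 4.75% of all genes. Spib, a transcription factor of B cells and plasmacytoid dendritic cells, was at 122, 38.9 and 154 CPM in healthy rats and at 17.5, 19.4 and 20.8 CPM in controls at 4 days (-2.45 ± 0.89, adjusted p = 0.742). Bank1, a B cell adaptor, was at 97.0, 43.1 and 108 CPM against 0, 17.0 and 30.0 CPM (-2.40 ± 1.21), and for both genes the groups did not overlap, as for the 6.92% of genes with all control libraries below all healthy ones. Cd37, a tetraspanin that other leukocytes also carry, was at 48.3 to 101 CPM against 23.5 to 97.2 CPM (-0.31 ± 0.58). The summed level of the 16 genes was 402 to 764 CPM in healthy and 85.9 to 288 CPM in control rats at 4 days. Of 15 B cell receptor signalling genes 13 were estimated lower at 4 days (median -0.56, 0 called), and Syk, the kinase that reads the phosphorylated Cd79 chains, was at 298, 484 and 353 CPM in healthy and 88.7, 211 and 116 CPM in control rats (-1.45 ± 0.58, adjusted p = 0.742). The 12 class I presentation genes, led by B2m, had 8 of 12 lower (median -0.39, 0 called), and the 13 other class II loading genes 6 of 13 (median 0.10, 0 called). In those lists edgeR had 1, 1 and 2 genes at an unadjusted p under 0.05.

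T cell genes were low in the same libraries. All 9 T cell markers were estimated lower in control than in healthy rats at 4 days (median -2.75, 0 called), and their summed level was 295 to 520 CPM in healthy and 46.1 to 176 CPM in control rats. Hemoglobin genes took 4.13% to 10.5% of annotated counts in healthy plasma, 1.62% to 3.31% in control rats at 4 days and 6.76% to 17.6% in control rats at 10 and 31 days. The summed level of 6 neutrophil genes was 86.4 to 193 CPM in healthy and 474 to 2119 CPM in control rats at 4 days, with 5 of 6 estimated higher, 0 called and 1 at an unadjusted p under 0.05. The part of these shifts in the B cell values was not tested. Leaving the hemoglobin genes out gave 0 called members in every plasma comparison.

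Across the 21 plasma libraries Cd74 and RT1-Da had the highest Pearson r of all pairs of members, 0.704 on log2(CPM + 1) with a Spearman rho of 0.703, followed by Blk with Cd74 (r = 0.610, rho = 0.645). By rho the order was another, with Ms4a1 and Cd79a (rho = 0.740, r = 0.540) and Blk and RT1-Ba (rho = 0.709, r = 0.476) above both of these pairs. Among 14711 other genes, those most like the mean of the 5 B cell members were Arhgef18 (r = 0.858), Aff3 (0.844), Hspa4 (0.838), Lmnb1 (0.817), Pole2 (0.814), Dock8 (0.803), Bcl11b (0.801) and Maz (0.801). For the mean of Cd74 and the class II chains they were Cd2 (0.811), Vars (0.794), RT1-Db1 (0.787), Papolg (0.779), Padi2 (0.779), Cisd2 (0.771), Commd7 (0.762) and Tra2b (0.761). RT1-Db1 is the remaining chain of the DR-like molecule and Cd2 a T cell surface protein. All these values share the libraries, the depth and the groups of the same 21 rats and are given as a description.

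In brain-derived EVs the B cell genes were almost absent. Ms4a1 had 0 counts in all 21 libraries, which allows up to 3 counts in each. Cd79a had 11 counts, Blk 8 and Cd79b 4, each in 1 library of the treatment group at 31 days, Blk and Cd79b in the same one. Of the 16 further B cell identity genes Spib, Pou2af1 and Fcer2 had no counts, and Pax5 and Cr2 had 5 and 14 counts in all. Bcl11a, a gene that neurons also use, held most of that list with 11188 counts. The markers that define B cells were therefore at or near 0 in the brain libraries.

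Cd22 was the exception among the B cell members. It had no counts in the 3 healthy rats and the 6 rats sampled at 4 days. At 10 days it gave 3.41, 0 and 21.9 CPM in control and 18.8, 39.0 and 0 CPM in treatment rats. At 31 days it gave 18.5, 5.81 and 7.10 CPM in control and 9.86, 8.54 and 8.83 CPM in treatment rats. Against the floor of 3 counts over the healthy libraries (0.317 CPM), control rats were at least 21.6-fold higher at 10 days and at least 40.7-fold higher at 31 days. These bounds rested on single rats, being at least 5.62-fold without control replicate 3 at 10 days (33 of 41 counts) and at least 20.2-fold without control replicate 1 at 31 days (300 of 389 counts). Without healthy replicate 2, the deepest healthy brain library, they were at least 11.3-fold and 21.3-fold, and without healthy replicate 3 at least 13.5-fold and 25.4-fold. The test did not call it at either time (unadjusted p = 0.00681 and 0.00548, adjusted p = 0.216 and 0.483), whereas DESeq2 did at 10 days (adjusted p = 0.0344). Between control rats at 31 and 4 days the adjusted p was 0.268 with edgeR and 0.0188 with DESeq2. Cd22 passed the filter on low counts through libraries from 10 or 31 days, so nothing is read from these tests.

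Cd22 neighbours Mag, a myelin gene named for its position, in the GRCr8 annotation, and the counting rule for overlapping reads is not given in the sources used here. Mag was at 122 to 184 CPM in healthy brain, 106 to 159 CPM in control rats at 4 days, 132 to 159 CPM at 10 days and 57.0 to 105 CPM at 31 days. In treatment rats Mag was at 121 to 212 CPM at 4 days, 111 to 195 CPM at 10 days and 51.6 to 85.8 CPM at 31 days. Its part in the Cd22 counts was not tested.

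Cd74 was the presentation gene with the steadiest signal in the brain, counted in 20 of 21 libraries. Healthy rats gave 0, 31.0 and 5.63 CPM. Control rats gave 42, 40.2 and 12.3 CPM at 4 days, 20.4, 31.2 and 14.6 CPM at 10 days and 58.8, 61.0 and 53.3 CPM at 31 days. At 31 days all control rats lay above all healthy rats, and they also lay close together. The estimates against healthy rats were 1.33 ± 0.96, 0.82 ± 0.96 and 2.20 ± 0.99 on the log2 scale, with adjusted p-values of 0.658, 0.903 and 0.632 (unadjusted 0.0357 at 31 days).

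The class II chains were seen together only at 31 days. RT1-Da had no counts in healthy rats and rats sampled at 10 days and was counted in 1 of 3 control rats at 4 days (7 counts) and 1 of 3 treatment rats (6 counts). At 31 days it gave 3.64, 4.09 and 4.89 CPM in control and 2.45, 8.44 and 3.15 CPM in treatment rats, at least 12.7-fold and 13.8-fold above the healthy floor. With 1 library left out these bounds fell to at least 6.62-fold and 7.20-fold at the lowest, both without healthy replicate 2, and to 7.91-fold and 8.60-fold without healthy replicate 3, and the bound for treatment rats fell to 8.46-fold without treatment replicate 2. RT1-Ba had counts at 31 days alone, at 2.59, 1.19 and 3.63 CPM in control rats (at least 7.74-fold above the healthy floor, or 4.05-fold without healthy replicate 2 and 4.83-fold without replicate 3) and at 0, 2.16 and 0.968 CPM in treatment rats. RT1-Bb gave 3.70, 8.05 and 4.42 CPM in control rats at 31 days, but also 4.87 CPM in 1 healthy and 17.2 CPM in 1 control rat at 10 days. RT1-Db1, whose promoter holds the same Y box letters, had counts in 3 of 21 brain libraries, of which 2 were at 31 days. It had 35 counts in 1 treatment rat at 4 days, and 11 in 1 control and 34 in 1 treatment rat at 31 days.

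**Figure D3:**
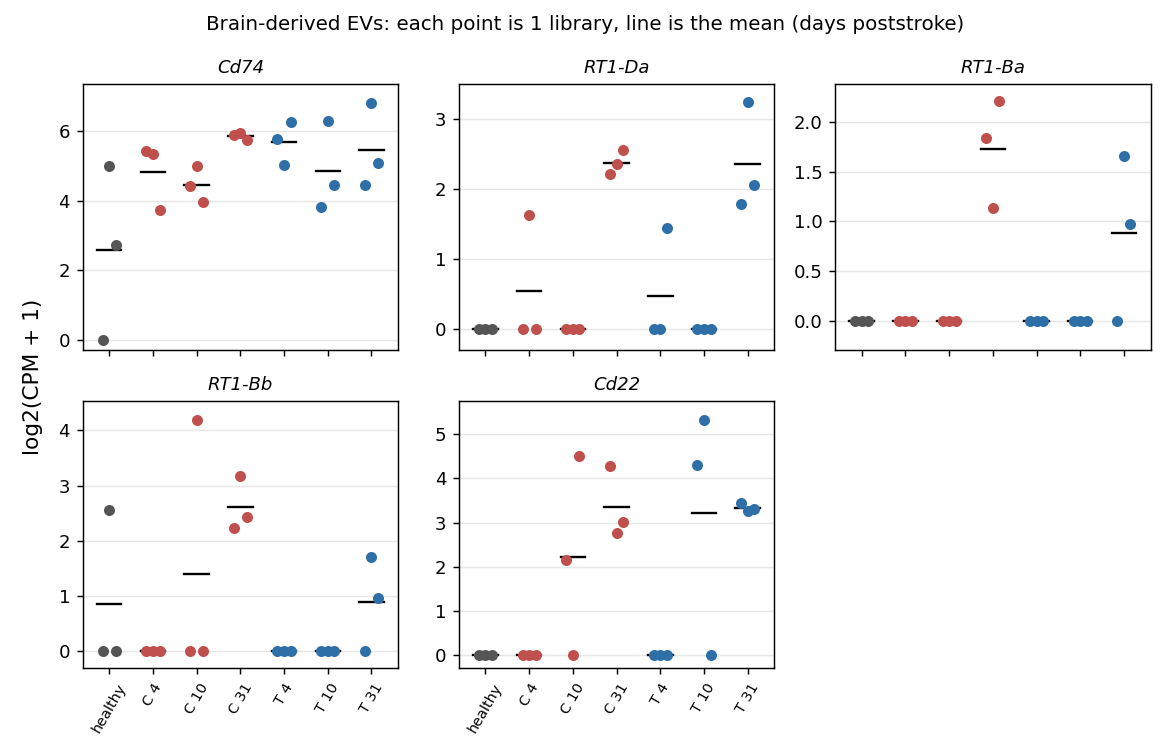
Level of 5 members in brain-derived EVs, as log2(CPM + 1), in healthy, control (C) and treatment (T) rats by days poststroke; each point is 1 library and the bar is the mean of 3. RT1-Da and RT1-Ba leave 0 in all 3 control libraries only at 31 days, and Cd22 is at 0 in every healthy library and every library from 4 days.

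Of the 9 members, Cd22, RT1-Da and RT1-Ba were counted in all 3 control rats at 31 days and in none of the healthy rats, as were 3.82% of the 16992 genes with counts in the brain. With Cd74, 4 members had all control libraries at 31 days above all healthy ones, as did 17.9% of genes. No member was called in edgeR against healthy rats at 4, 10 or 31 days or on average, beside 0.861%, 0.572%, 0.00689% and 0.186% of the 14515 genes tested, nor between 31 and 4 days (0.248%). Of the 4 members tested, edgeR had 1, 1, 3, 0 and 2 at an unadjusted p under 0.05 in these comparisons in that order, beside 14.8%, 12.7%, 7.14%, 12.3% and 9.50% of all genes. Limma had all 4 at 31 days and between 31 and 4 days, beside 85.9% and 55.8% of all genes. Cd22 and RT1-Da passed the filter on low counts through libraries from 10 or 31 days, so nothing is read from these counts of members. The unadjusted p at 4 days belonged to RT1-Bb, which was counted in 1 healthy library alone (22 counts). Where a group had only zeros, as for Cd22 and RT1-Da, the contrast over the 3 days gave no usable estimate, and Cd74 was at 1.45 ± 0.85 (adjusted p = 0.566). DESeq2 called Cd22 at 10 days, when it called 4.22% of all genes, and between 31 and 4 days, when it called 1.68%. Limma on log2(FPKM + 1) called Cd74 at 31 days, when it called 57.0% of all genes, and between 31 and 4 days, when it called 28.1%.

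Annotated counts moved with the 31-day values. The 6 brain libraries from 31 days held 6379318 to 15587216 annotated counts and the other 15 held 569136 to 6105035. Total counts overlapped, at 17965904 to 37651652 against 13221461 to 28068838. The annotated share did not overlap, at 29.9% to 51.9% against 3.18% to 25.3% of all counts. Time, annotated depth and this difference in composition cannot be told apart in full. In the healthy libraries 3 counts were worth 2.16, 0.665 and 0.844 CPM, below the RT1-Da level of every control library at 31 days. The RT1-Ba level of 1.19 CPM in 1 of those libraries was under the highest of these floors. At 10 days 3 counts were worth 1.28 to 2.00 CPM in control and 1.07 to 4.52 CPM in treatment libraries, so levels of RT1-Da and RT1-Ba like those of 31 days could be missed in part of them. The mean of the 4 presentation members followed the log2 of annotated counts with r = 0.596 over 21 libraries and with r = 0.199 (rho = 0.0357) over the 15 libraries from other times. RT1-Da passed the filter on low counts through the 31-day libraries, while RT1-Ba did not pass it.

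Treatment and control did not differ by the test in the brain at 4, 10 or 31 days or over the 3 days, with 0 members and 0% of all genes called each time. RT1-Bb had an unadjusted p of 0.0474 at 10 days, when 13.4% of all genes were under 0.05, and it rested on 1 control library with 37 counts. DESeq2 had 0 members at an unadjusted p under 0.05 in these comparisons, beside 7.76%, 16.6%, 0.0413% and 9.35% of all genes, and limma 1 at 31 days and 1 over the 3 days, beside 1.89% and 3.98% of all genes. At 31 days the treatment rats gave 21.1, 113 and 33.4 CPM of Cd74 (-0.05 ± 0.94, 95% normal interval -1.89 to 1.79), around the control values, and the RT1-Da estimate was 0.15 ± 1.86. Over the 3 days Cd74 differed by 0.50 ± 0.55, and the zeros of the other members left no usable estimate for them. RT1-Bb at 0, 2.26 and 0.968 CPM was below all control rats, as were 2.64% of genes (-2.31 ± 2.27, adjusted p = 1.00). In plasma the RT1-Bb values of these groups stood in the same order without overlap.

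Some genes that act beside the members were called in the brain. At 4 days 4 of 15 B cell receptor signalling genes were called higher in control than in healthy rats and 0 lower (median 2.88, all genes 0.05), beside 0.861% of all genes, and at 10 days 4 of 15 (median 2.73), beside 0.572%. Among them were Blnk, an adaptor, and Ptpn6 and Inpp5d, phosphatases that restrain receptor signals and that myeloid cells including microglia also use. Blnk had no counts in the 3 healthy rats and 38.9, 40.2 and 50.9 CPM at 4 days, at least 136-fold above the healthy floor, or 71.2-fold without healthy replicate 2 and 85.1-fold without replicate 3. Ptpn6 was at 0, 12.0 and 9.85 CPM in healthy rats and at 154, 86.4 and 93.8 CPM at 4 days (3.85 ± 0.86, adjusted p = 0.0303). Inpp5d rose from 12.9, 30.1 and 12.9 CPM to 103, 176 and 141 CPM (2.88 ± 0.51, adjusted p = 0.0113). All 3 genes had every control library at 4 days above every healthy one, as did 11.9% of the genes with counts in the brain.

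Among enzymes that prepare peptides for class II molecules, 1 was called higher at each of 4 and 10 days. Lgmn, a lysosomal protease, was at 39.5, 33.5 and 35.5 CPM in healthy rats and at 206, 166 and 158 CPM in control rats at 4 days (2.29 ± 0.44, adjusted p = 0.0155), the only 1 of 10 class II loading genes tested that edgeR called. Leaving out 1 rat at a time gave 0 to 1 called genes of that list, the replicate block 2, only the groups compared 3 of 9, and DESeq2 and limma 4 each. Ctss, the protease that trims the invariant chain, was called at 10 days (3.69 ± 0.82, adjusted p = 0.0408), at 36.2, 319 and 149 CPM against 0, 23.9 and 13.2 CPM. Its call was lost with unannotated genes kept, with hemoglobin genes left out, with only the groups compared and with limma. DESeq2 called 4 genes of the list at 10 days, and leaving out 1 rat gave 0 to 4 called genes of the list at 10 days. Control replicate 2 at 10 days, with 319 CPM of Ctss, stood apart in other lists too. Its sum of 6 neuron genes was 2870 CPM against 8152 and 5005 CPM, and its class II loading sum 979 against 238 and 424 CPM. Ciita, the switch of class II transcription, chosen for naming after its values were seen, had no healthy counts and gave 9.25, 0 and 0 CPM at 4 days, 3.83, 0 and 0 CPM at 10 days and 5.12, 3.96 and 2.84 CPM at 31 days in control rats. The class II loading list was at 97.7 to 216 CPM in healthy rats, 523 to 621 CPM in control rats at 4 days and 296 to 384 CPM at 31 days.

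Microglia and macrophage markers moved with these genes. Of 13 tested, 2 were called higher at 4 days and 4 at 10 days, and C1qc, a complement chain, gave 0, 6.65 and 4.22 CPM in healthy and 319, 212 and 113 CPM in control rats at 4 days. Their summed level was 83.3 to 147 CPM in healthy rats, 670 to 1388 CPM at 4 days, 256 to 2615 CPM at 10 days and 236 to 473 CPM at 31 days. Other cell types moved too. From healthy to control rats at 4 days, 5 astrocyte genes went from 1129 to 1281 CPM in sum to 3297 to 3538 CPM. The sum of 5 oligodendrocyte genes went from 2506 to 2818 CPM to 3564 to 5703 CPM. That of 6 neuron genes overlapped, at 6852 to 9106 against 5471 to 7225 CPM. Of the 9 T cell genes, Cd3e, Cd3d, Cd247, Cd2 and Cd5 had no counts in any brain library, while the sum of the list was 0 to 17.5 CPM in healthy rats and 22.0 to 53.1 CPM at 4 days, 25.6 to 143 CPM at 10 days and 30.4 to 60.5 CPM at 31 days in control rats. Cd4, which rat macrophages also carry, had the highest counts of that list, and 0 of the 2 T cell genes that passed the filter were called. The part of the microglial, astrocyte, oligodendrocyte and T cell list changes in the signalling and loading lists was not tested. The calls were fragile, since leaving out 1 rat at a time gave 0 to 2 called signalling genes at 4 days and 0 to 4 at 10 days, and 0 to 2 and 0 to 8 called microglia and macrophage genes. Limma on log2(FPKM + 1) called 2 signalling genes at 4 days and 0 at 10 days, and DESeq2 called 5 and 6. Of the microglia and macrophage genes limma called 4 at 4 days and 0 at 10 days, and DESeq2 7 and 8. At 10 days fitting only the groups compared left 0 called genes in both lists, and with unannotated genes kept or hemoglobin genes left out 2 microglia and macrophage genes were called at that time.

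**Figure D4:**
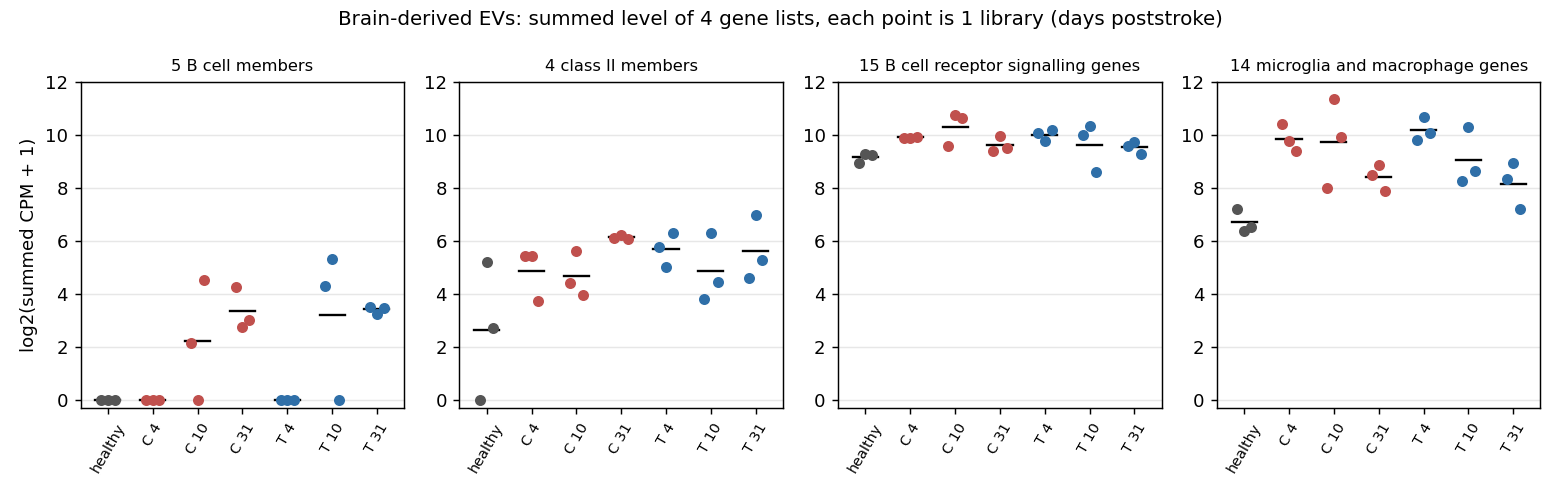
Summed level of 4 gene lists in brain-derived EVs, as log2(summed CPM + 1), for healthy, control (C) and treatment (T) rats by days poststroke; each point is 1 library and the bar is the mean of 3. The 5 B cell members sit at 0 at 4 days, when the B cell receptor signalling list and the microglia and macrophage list of the stroke groups lie above all healthy rats.

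Among 14511 other genes in the brain the pattern of the 4 presentation members over the 21 libraries was most like that of Dnajc8 (r = 0.897, rho = 0.890), a chaperone counted in all of them. It was followed by Itgb3bp (0.842), Bfsp1 (0.827), Psmd10 (0.820), Hdc (0.808), Vcp (0.807), Hnrnph2 (0.803) and Chrdl1 (0.803). Of these, Itgb3bp, Bfsp1, Psmd10, Hdc and Chrdl1 were counted in 5 to 9 libraries only.

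Brain and plasma were compared in the healthy rats, whose EVs came from both sites. By edgeR 8 of the 9 members were called lower in brain-derived than in plasma-derived EVs, where 17.6% of the 13771 genes tested were called lower and 34.5% in either direction. With the replicate number as a block 3 of 9 were called, RT1-Da, RT1-Ba and Cd79a (adjusted p = 0.0217, 0.0479 and 0.0427), none of which had counts in healthy brain. The other 6 had adjusted p-values from 0.0808 to 0.291. In that fit 7.91% of all genes were called lower and 17.0% in either direction. DESeq2 called 8 lower and limma 9, beside 24.4% and 54.3% of all genes. Of the 9 members, 7 had no counts in healthy brain and passed the filter on low counts through plasma alone. Nothing is therefore read from these counts of called members. On library totals, healthy plasma pooled to 144 CPM of RT1-Da and healthy brain to 0 counts, which puts plasma at least 468-fold higher against the floor of 3 counts over the 3 brain libraries. The same bound was at least 156-fold for Cd79a, 142-fold for RT1-Ba, 70.7-fold for Ms4a1, 66.8-fold for Cd79b, 61.3-fold for Blk and 39.0-fold for Cd22. Leaving out brain replicate 2 lowered these bounds most for 6 of the 7 genes, to at least 252-fold for RT1-Da, 84.0-fold for Cd79a, 76.5-fold for RT1-Ba, 38.0-fold for Ms4a1, 35.9-fold for Cd79b and 33.0-fold for Blk, and leaving out plasma replicate 3 lowered that of Cd22 to 19.7-fold (20.98-fold without brain replicate 2). Without brain replicate 3 the 7 bounds ran from 23.7-fold to 284-fold, and without plasma replicate 1 that of RT1-Ba was 80.8-fold.

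Cd74 and RT1-Bb were the members with counts in healthy brain. Cd74 gave 475, 118 and 493 CPM in plasma and 0, 31.1 and 5.22 CPM in brain (log2 difference -5.18 ± 1.43, adjusted p = 0.0296), which lost its call without brain replicate 3 (adjusted p = 0.122) or plasma replicate 1 (0.0513). RT1-Bb gave 8.31, 6.19 and 5.04 CPM in plasma and 0, 4.89 and 0 CPM in brain and was not called (-2.37 ± 1.84, adjusted p = 0.360). Of the further B cell identity genes 11 of 14 tested were called lower in brain, and of the B cell receptor signalling genes 11 of 15. With the replicate number as a block 5 and 7 were called lower. Leaving out 1 library gave 8 to 11 and 6 to 12, with 6 signalling genes without brain replicate 3.

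**Figure D5:**
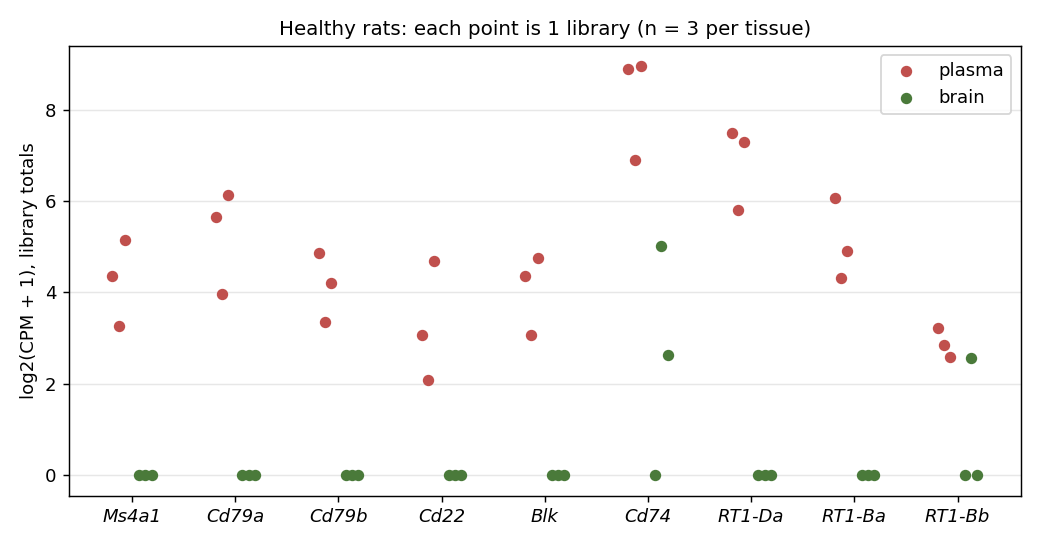
Level of the 9 members in plasma-derived and brain-derived EVs of healthy rats, as log2(CPM + 1) on library totals; each point is 1 library (n = 3 per tissue). Every plasma point of Cd74 lies above every brain point, and 7 members have all brain points at 0.

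The stroke effect at 4 days was also set against tissue. Cd74 had an estimate of 1.33 ± 0.96 in the brain and of -0.88 ± 0.55 in plasma, a difference of 2.15 ± 1.15 on the log2 scale with an adjusted p of 0.557. None of the 9 members was called by edgeR for this difference, beside 0.159% of 16945 genes, and only Cd74, RT1-Da and RT1-Bb gave a usable estimate because the others had no brain counts in these groups. At an unadjusted p under 0.05 edgeR had 1, RT1-Da, whose brain values were 0 but for 1 library with 7 counts, and limma had 1, beside 10.3% and 9.15% of all genes. DESeq2 had 2, beside 14.3%, and called RT1-Bb (adjusted p = 2.33e-05), when it called 8.04% of all genes. RT1-Bb was at 0 in all control brain libraries at 4 days and in 2 of 3 healthy ones (edgeR unadjusted p = 0.145).

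The level of a member in the brain was compared with that in the plasma of the same rat, matched by number, for the 4 members tested in both. RT1-Bb had a Pearson r of 0.609 (permutation p = 0.00287) and a Spearman rho of 0.650 (permutation p = 0.00151) over 21 rats, but the adjusted p over 12885 genes was 0.902 and 0.682. No gene passed the adjustment, and 314 genes had a positive and 278 a negative r at an unadjusted p under 0.05. Without the 2 rats farthest from the median brain level r was 0.526, and within groups it was 0.364. In 14 of the 21 rats RT1-Bb had no counts in the brain. The others had r of -0.235 for Cd74, 0.0279 for Cd22 and 0.303 for RT1-Da, with permutation p from 0.182 to 0.904 and rho of -0.112, -0.0113 and 0.274.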

How the data were processed

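Brain-derived and plasma-derived EVs of 21 rats were measured by stranded total RNA sequencing. The authors aligned reads with Bowtie2 to Rnor_6.0 and deposited a table of gene counts and a table of FPKM values from StringTie; which program counted the reads, whether it used strand and which versions were run is not given in the sources used here, so overlapping or antisense genes may share reads. No molecular identifiers are described, so floors of 3 counts cover counting error only. Of 26637 listed genes, 18782 were annotated and the 7855 new genes were left out.

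The main test was the quasi-likelihood F test of edgeR (version 4.0.16, R 4.3.3; TMM factors, filterByExpr, Benjamini-Hochberg adjustment over all genes tested), on counts, with 1 model of 7 groups per tissue. Healthy brain against plasma and the tissue interaction had models of their own. Alternatives were DESeq2 1.42.0, limma 3.58.1 on log2(FPKM + 1) and log2(FPKM + 0.1), other filters and scaling, and leaving out each replicate. Correlations used 100000 permutations (SciPy 1.17.1). The fits were tested on simulated data.

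Deviations of samples with the same replicate number were correlated above 0.1 for all 3 numbers in 1 of 14 within-tissue comparisons. This was brain, treatment against control at 31 days (0.254 to 0.330), where the block changed no call. These groups hold different animals, so the number does not pair them by animal. Brain and plasma libraries were matched to a rat by the number in the labels alone. In healthy rats the correlations of deviations between the 2 tissues were -0.0104, 0.0373 and 0.0174 for numbers 1 to 3.

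The members and gene lists were chosen with earlier results of these data known. All members are named, and from each list at most 4 genes by highest count or by call. Beyond that rule, Spib, Pou2af1, Fcer2, Pax5, Cr2, Cd3e, Cd3d, Cd247, Cd2 and Cd5 were named for few or no counts in the brain. Ciita was named after its values were seen, and other exceptions are stated. Single values of some list genes are not reported here. The genes most like a pattern are the 8 with the highest r. Promoter sequences are from RefSeq GRCr8, and no coordinates were converted between builds.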

Additional observations from a re-analysis of the deposited data

How the results depend on the processing

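In plasma no alternative called a member in any comparison, with 1 exception. Leaving out 1 rat at a time gave 0 to 1 called members for treatment against control at 4 days (Cd79a without treatment replicate 3, beside 0.262% of all genes). In the brain the unadjusted p gave 1 member for control against healthy at 4 days, 1 at 10 days and 3 at 31 days, 1 for treatment against control at 10 days, and 2 for control at 31 against 4 days. DESeq2 gave 1 at 10 days and 1 for 31 against 4 days, both times Cd22, which passed the filter through libraries from 10 or 31 days. Limma on log2(FPKM + 1) gave 1 at 31 days and 1 for 31 against 4 days, and on log2(FPKM + 0.1) it gave 4 and 3, beside 80.9% and 18.1% of all genes, and 1 for control against healthy over the 3 days, beside 7.21%. Fitting only the groups compared gave 2 for 31 against 4 days, beside 6.34% of all genes, and it does not apply to healthy brain against plasma, which has no other groups. For the stroke effect in brain minus that in plasma the unadjusted p gave 1 and DESeq2 1. For healthy brain against plasma the replicate block gave 3 called members and leaving out 1 library gave 6 to 9, the fewest without brain replicate 3. The block changed no other count of called members. Between treatment and control brain at 31 days, the Cd74 estimate ran from -1.09 to 0.33 with 1 rat left out and was 0.21 without treatment replicate 3. The RT1-Da estimate ran from -0.59 to 0.45 and was -0.17 with the replicate block. The r of brain and plasma levels was 0.364 for RT1-Bb within groups. Without the 2 farthest rats it was -0.0427 for Cd22, 0.0312 for Cd74 and -0.035 for RT1-Da, and on FPKM it was 0.0916 for Cd74. The cause of these changes was not tested. With 3 rats per group and many zeros, the SE of most B cell members exceeded 1 log2 unit, so the test leaves large changes undetected, and shallow brain libraries limit detection as well.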
